A study of Mus musculus with 188 samples.

Results

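The 9 genes described here, Gpr34, P2ry12, P2ry13, Tmem119, Cx3cr1, Csf1r, Sall1, Siglech and Fcrls, are the usual homeostatic marker genes of microglia, the resident macrophages of the brain. They were taken by symbol from the 25472 genes that all count files share, without use of any measured value, and each of the 9 symbols matched 1 row. Bulk mRNA was sequenced from organotypic brain slice cultures, coronal slices of C57BL/6J mouse brain kept on inserts and then treated. Of 188 libraries, all but 21 could be placed in one of 18 groups. Per the study's methods the mice were young adults of both sexes, and every slice, control or treated, had been cultured first with horse serum and then in serum-free medium.

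Batch 1 (60 libraries, all 24 h) held 10 libraries each of untreated control slices, of slices given heme bound to albumin (heme-albumin) at 12.5, 50, 200 and 400 µM, and of slices given heme with hemopexin (heme-Hpx) at 200 µM. The titles of the heme-Hpx libraries name haptoglobin, while their treatment tag and library names say hemopexin, and the tag was followed. Batches 2 and 3 held untreated controls (10 at 24 h, 9 at 48 h), hemoglobin (Hb) at 200 and 400 µM (10 libraries at each dose and time), hemoglobin with haptoglobin (HbHp) at 200 µM (8 at 24 h, 8 at 48 h) and at 400 µM (4 at 24 h, 5 at 48 h), and haptoglobin alone (Hp) at 400 µM (12 at 24 h, 11 at 48 h). Batches are the sequencing orders that the labels give. Library names of batches 2 and 3 carry a further code, E1 or E2, called round here, and all 25 HbHp libraries are of batch 3 and round E2. Total counts ran from 11038484 to 44199060 in batch 1 and from 15587938 to 54174784 in batches 2 and 3.

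Microglia depend on signalling through CSF1R, the receptor for CSF1 and IL-34, and on transforming growth factor beta for their adult identity. P2RY12 and P2RY13 are receptors for extracellular ADP, through which microglial processes find damaged cells. GPR34 is a receptor for lysophosphatidylserine, CX3CR1 is the receptor for neuronal fractalkine, TMEM119 and FCRLS are surface proteins that mark microglia, SIGLEC-H is a sialic acid-binding receptor, and SALL1 is a transcription factor that maintains microglial identity. These genes are known to be turned down when microglia are activated by injury. In bulk tissue, fewer microglia and less RNA of a gene per microglial cell cannot be told apart.

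In the GENCODE annotation of GRCm38 (the count files were made on GRCm39, so these positions locate the genes and not the counted reads), P2ry13 (ENSMUSG00000036362, chr3:59207892-59210882) and P2ry12 (ENSMUSG00000036353, chr3:59216272-59262871) are neighbours on the minus strand of chromosome 3, which also carries Fcrls (ENSMUSG00000015852, chr3:87250758-87263738). Gpr34 (ENSMUSG00000040229) lies at chrX:13632089-13640858, Tmem119 (ENSMUSG00000054675) at chr5:113793729-113800516, Cx3cr1 (ENSMUSG00000052336) at chr9:119901616-120069879, Sall1 (ENSMUSG00000031665) at chr8:89027235-89044162, and Siglech (ENSMUSG00000051504) at chr7:55768178-55778925 (the position of Csf1r, ENSMUSG00000024621, is not given here). P2ry12 and P2ry13 lie inside Med12l and Gpr34 inside Cask, each on the other strand, and Csf1r shares 873 exon bases with Hmgxb3 on the other strand. Whether the counting used strand is not stated.

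The 250 bases before the RefSeq start (GRCm38.p6) are shown for 4 members that fell together under heme-albumin and for Sall1, which did not. PU.1, the transcription factor of the myeloid lineage, binds sites around the core GAGGAA, and capitals mark that core or its reverse complement TTCCTC. Other forms of a PU.1 site were not searched for, so a window without capitals may still hold one. The windows are chr3:59262986-59263235 for P2ry12, chr3:59210883-59211132 for P2ry13, chr9:120068297-120068546 for Cx3cr1, chr3:87263525-87263774 for Fcrls and chr8:89044163-89044412 for Sall1, all on the minus strand.
P2ry12: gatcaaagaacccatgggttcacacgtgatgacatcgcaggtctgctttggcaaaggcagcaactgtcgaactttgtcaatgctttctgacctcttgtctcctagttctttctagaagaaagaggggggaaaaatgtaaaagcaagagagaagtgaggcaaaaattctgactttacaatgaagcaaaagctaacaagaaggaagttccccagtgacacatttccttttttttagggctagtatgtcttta
P2ry13: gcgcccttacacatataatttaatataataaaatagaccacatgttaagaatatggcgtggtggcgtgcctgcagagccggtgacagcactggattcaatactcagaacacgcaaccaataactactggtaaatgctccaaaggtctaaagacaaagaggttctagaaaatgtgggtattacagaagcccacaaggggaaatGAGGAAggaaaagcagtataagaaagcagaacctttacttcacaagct
Cx3cr1: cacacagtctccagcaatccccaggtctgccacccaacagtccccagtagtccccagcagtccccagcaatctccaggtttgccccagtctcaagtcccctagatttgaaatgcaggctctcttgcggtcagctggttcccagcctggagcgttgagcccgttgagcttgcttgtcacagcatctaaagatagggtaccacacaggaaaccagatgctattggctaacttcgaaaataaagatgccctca
Fcrls: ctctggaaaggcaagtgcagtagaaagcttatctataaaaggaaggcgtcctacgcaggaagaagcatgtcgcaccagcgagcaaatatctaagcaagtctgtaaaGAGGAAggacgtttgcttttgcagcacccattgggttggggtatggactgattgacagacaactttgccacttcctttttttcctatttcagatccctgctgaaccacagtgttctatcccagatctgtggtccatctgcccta
Sall1: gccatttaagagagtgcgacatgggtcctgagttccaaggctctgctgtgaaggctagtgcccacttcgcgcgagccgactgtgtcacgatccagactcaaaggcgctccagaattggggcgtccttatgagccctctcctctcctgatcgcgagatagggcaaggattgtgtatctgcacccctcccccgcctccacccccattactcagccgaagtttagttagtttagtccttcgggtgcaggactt
The core occurs 1 time before P2ry13, 48 bases from the start, and 1 time before Fcrls, 144 bases from the start, and it is not in the other 3 windows. Of 32851 windows of this length in the RefSeq table, 23.3% hold it on either strand. The AP-1 motif TGANTCA is in none of the 5 windows and in 6.7% of all windows. The Siglech window held neither motif, and 2 further starts of Sall1 are listed but not shown. For P2ry12 the bases just after the start used were not found in a GENCODE transcript of that gene.

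Siglech was close to absent from the counts of these libraries. It had 0 counts in 54 of 60 libraries of batch 1 and 1 count in each of the other 6. In batches 2 and 3 it had 0 counts in 74 libraries, 1 to 3 counts in 32 and 7 counts in 1 library. Against a floor of 3 counts, which stands for 0.0679 to 0.272 CPM (counts of a gene scaled to one fixed library size) by depth in batch 1, it was at or under that floor in all but 1 library, so it did not pass the filter on low counts and was not tested. All statements below on tested members concern the other 8.

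Per kilobase of the longest transcript, Sall1 was the most abundant member in batch 1, with group medians of 16.9 to 20.4 CPM per kb, followed by Csf1r (7.21 to 14.3), and Gpr34 was the least abundant (0.302 to 1.06). In batches 2 and 3 the highest group medians were those of Fcrls (31) and Csf1r (30.7), and Gpr34 again had a low range (1.23 to 3.78), with raw counts down to 3 in a library of batch 1. Within batch 1, the ranges of group medians for Fcrls (3.49 to 8.90) and Tmem119 (3.12 to 5.81 CPM per kb) overlapped, as did those of P2ry13 (1.48 to 2.28) and Cx3cr1 (0.696 to 1.97).

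Heme bound to albumin lowered 7 of the 8 tested members at 200 µM. Gpr34 fell most, to 0.233 of its control level, followed by Cx3cr1 (0.390), Fcrls (0.427) and Tmem119 (0.473), then Csf1r (0.562), P2ry13 (0.612) and P2ry12 (0.656). Sall1 stayed near its control level, with a ratio of 1.06. Of all 15554 genes tested in batch 1, 6.60% were lower at this dose (edgeR quasi-likelihood test, Benjamini-Hochberg adjusted p below 0.05), and the median log2 fold change was -0.96 over the 8 members against -0.013 over all genes.

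Gpr34, the lysophosphatidylserine receptor, ran from 1.58 to 4.29 CPM (median 2.19) in the 10 control libraries and from 0.300 to 1.07 CPM (median 0.630) in the 10 libraries given 200 µM heme-albumin. The groups did not overlap, and the fitted log2 fold change was -2.10 ± 0.31 (SE, adjusted p = 1.65e-06 by edgeR). At 400 µM the range was 0.107 to 1.13 CPM (median 0.748), again below every control, with a log2 fold change of -1.98 ± 0.31 (adjusted p = 8.79e-07).

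Cx3cr1, the fractalkine receptor, had 4.35 to 19.8 CPM (median 8.87) in controls and 2.03 to 6.12 CPM (median 3.13) at 200 µM heme-albumin. The ranges overlapped only between 4.35 and 6.12 CPM. The log2 fold change was -1.36 ± 0.34 (SE, adjusted p = 0.00397 by edgeR) at 200 µM and -1.05 ± 0.33 (adjusted p = 0.0134) at 400 µM.

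The ADP receptors fell by less, with smaller standard errors than the other called members. P2ry12 had 7.14 to 12.8 CPM (median 9.74) in controls, 3.33 to 9.38 CPM (median 6.80) at 200 µM and 3.88 to 6.90 CPM (median 5.67) at 400 µM. The 400 µM libraries were all below the controls, while the 200 µM libraries overlapped them. Its log2 fold changes were -0.61 ± 0.14 (adjusted p = 0.00118, edgeR) and -0.86 ± 0.14 (adjusted p = 1.47e-06 at 400 µM), and the difference between the doses was not tested. P2ry13 had 3.91 to 12.4 CPM (median 4.88) in controls. With heme-albumin it had 2.36 to 5.17 CPM (median 3.75) at 200 µM and 2.22 to 5.17 CPM (median 3.86) at 400 µM, overlapping the controls. Its fitted log2 fold change was -0.71 ± 0.20 at both doses. The medians differed by less than this fitted value, and control libraries 2, 5 and 7 stood high at 9.19, 12.4 and 9.27 CPM.

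The surface markers Fcrls and Tmem119 and the growth factor receptor Csf1r fell at 200 µM from widely spread controls. Fcrls ran from 7.90 to 34.5 CPM (median 20.2) in controls and from 3.69 to 14.8 CPM (median 7.94) at 200 µM, with log2 fold changes of -1.23 ± 0.28 at 200 µM and -1.0 ± 0.28 at 400 µM (adjusted p = 0.00146 and 0.00388 by edgeR). Tmem119 ran from 5.53 to 31.8 CPM (median 12.4) in controls and from 3.55 to 12.3 CPM (median 6.99) at 200 µM (log2 fold change -1.08 ± 0.30, adjusted p = 0.0117). The Tmem119 value at 400 µM was -0.70 ± 0.30 with an adjusted p of 0.0716 by edgeR. Csf1r ran from 31.1 to 112 CPM (median 53.6) in controls and from 21.1 to 55.2 CPM (median 33.9) at 200 µM (log2 fold change -0.83 ± 0.24, adjusted p = 0.0122), and at 400 µM its value was -0.55 ± 0.23 (adjusted p = 0.0696).

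In all, 5 of 8 members were lower at 400 µM, where 14.3% of all genes were lower. Control library 2 held the highest Tmem119, Cx3cr1, Csf1r and Fcrls of its group and the lowest Sall1 (62.7 CPM). Without it, 6 of 8 members were lower at 200 µM, the Tmem119 value becoming -0.86 (adjusted p = 0.0504 by edgeR), and 5 at 400 µM.

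At the lower doses no member passed the test. All comparisons with control in batch 1 share the same 10 control libraries, and those of a given time in batches 2 and 3 share theirs. At 12.5 µM, where 0.0450% of all genes were called in either direction, the members' log2 fold changes ran from -0.58 to -0.027 (median -0.29), and all 8 were below 0. At 50 µM, where 0.463% were called, they ran from -0.76 to 0.0018 (median -0.28). With edgeR, 1 member at 12.5 µM and 2 at 50 µM had an unadjusted p below 0.05, and DESeq2 also called 0 at either dose. For Gpr34 the 95% interval at 50 µM, -1.33 to -0.20, lay below 0 but did not reach the estimate at 200 µM.

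**Figure D1:**
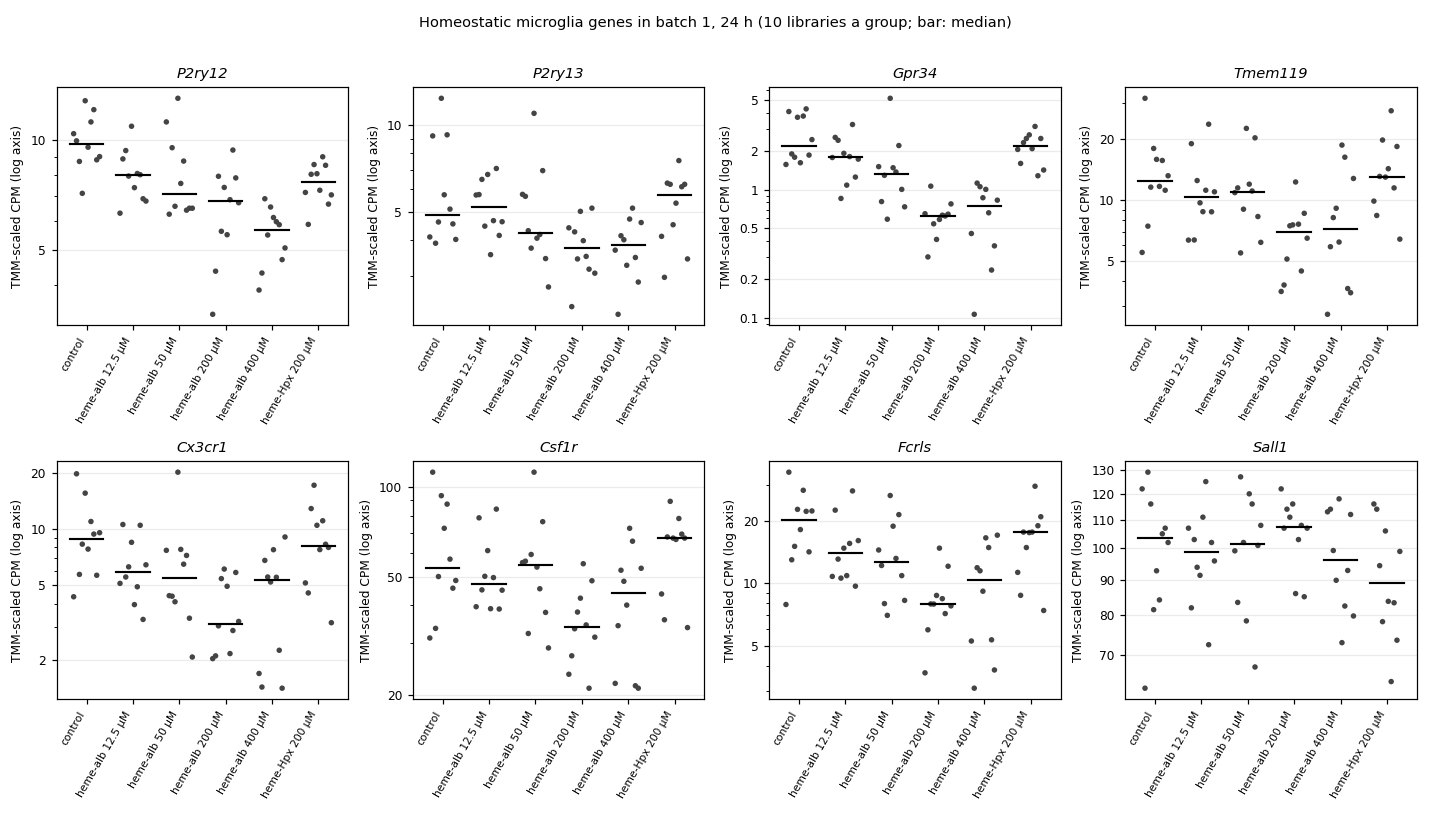
TMM-scaled CPM (log axis) of the 8 tested members in each of the 60 libraries of batch 1 (points) with group medians (bars). For Gpr34 the libraries given 200 or 400 µM heme-albumin lie below every control library, and for Sall1 the groups lie at one level.

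Sall1 behaved unlike the other members. It had 62.7 to 129 CPM (median 104) in controls, 85.1 to 122 CPM (median 108) at 200 µM and 73 to 118 CPM (median 96.1) at 400 µM heme-albumin, and the groups overlapped throughout. Its log2 fold change was 0.082 at 200 µM, with a 95% interval from -0.14 to 0.30, and -0.04 at 400 µM (-0.26 to 0.18). A fall of the size seen for P2ry12, the smallest called change at 200 µM, was outside these intervals. Between control libraries Sall1 did not follow the other members. The control with the most Csf1r (112 CPM) had the least Sall1 (62.7 CPM), and the one with the least Csf1r (31.1 CPM) had 122 CPM of Sall1. Which cells the Sall1 RNA came from was not tested, so its level cannot be read as that of microglia.

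Hemopexin is the plasma protein that binds free heme. With heme delivered on hemopexin at 200 µM, 5 of 8 members were higher than with the same dose on albumin, where 13% of all genes were higher. Gpr34 was 3.47-fold, Cx3cr1 2.34-fold, Tmem119 2.11-fold, Fcrls 1.94-fold and Csf1r 1.74-fold higher. Gpr34 ran from 1.29 to 3.13 CPM (median 2.22) with heme-Hpx, so every library lay above the 10 heme-albumin libraries of that dose (log2 fold change 1.80 ± 0.31, adjusted p = 2.91e-05 by edgeR). Cx3cr1 ran from 3.16 to 17.2 CPM (median 8.15), with overlap between the groups (1.23 ± 0.34, adjusted p = 0.0067).

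The ADP receptors did not pass this test. P2ry12 had 5.87 to 8.99 CPM (median 7.66) with heme-Hpx, between the medians of control and heme-albumin, and its log2 difference from heme-albumin was 0.23 (95% interval -0.036 to 0.49, adjusted p = 0.194 by edgeR). P2ry13 had 2.98 to 7.55 CPM (median 5.76), with a log2 difference of 0.46 (0.065 to 0.86, adjusted p = 0.0796). Sall1 was at 64.1 to 116 CPM (median 89.1), and its log2 difference was -0.22 (-0.43 to 0.0016).

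Against untreated controls, no member passed the test with heme-Hpx, where 8.20% of all genes were called in either direction. The members' log2 fold changes ran from -0.38 to -0.0014 (median -0.19). P2ry12 was nearest to a call at -0.38 ± 0.13 (adjusted p = 0.057 by edgeR), the only member with an unadjusted p below 0.05. DESeq2 called it lower, and so did edgeR without control library 2 (adjusted p = 0.0404). The 95% intervals were -0.48 to 0.43 for Csf1r and -0.58 to 0.58 for Tmem119, so changes within these bounds cannot be told from 0.

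**Figure D2:**
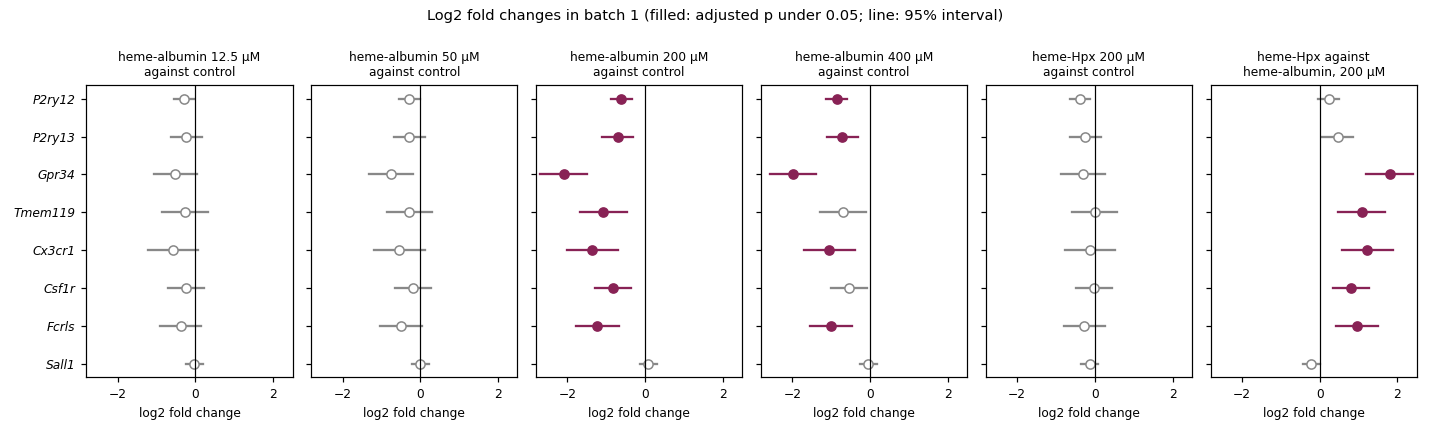
Log2 fold changes of the 8 tested members in batch 1 with 95% intervals (lines), filled where the adjusted p was below 0.05. Filled points are on the left of 0 for 7 members at 200 µM and 5 at 400 µM heme-albumin, and on the right for 5 members in the comparison of heme-Hpx with heme-albumin.

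Part of the other myeloid genes passed the same tests in batch 1. Of 15 genes shared by microglia and other myeloid cells (pan-myeloid list), 6 fell at 200 µM heme-albumin and none rose, with a median log2 fold change of -0.73, and the largest falls were those of Ly86 (-1.0), the complement gene C1qb (-0.89) and the integrin Itgam (-0.88). At 400 µM, 2 of 15 fell (Ly86 and C1qb, median of the list -0.45). All 15 were higher with heme-Hpx than with heme-albumin, at a median of 0.72, led by Itgam (1.05), Aif1 (1.0) and C1qb (0.96). The summed CPM of the list ran from 955 to 3819 (median 1753) in controls, from 685 to 1918 (median 1300) at 200 µM heme-albumin and from 1251 to 3269 (median 2328) with heme-Hpx.

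The summed CPM of the members was also set against that of the pan-myeloid list. Sall1 made up much of the members' sum, so the ratio was taken without it as well, a choice made after the data had been seen. Without Sall1 the log2 ratio ran from -4.15 to -3.87 (median -4.04) in controls, from -4.58 to -3.81 (median -4.30) at 200 µM heme-albumin, from -4.51 to -3.97 (median -4.33) at 400 µM and from -4.41 to -4.13 (median -4.24) with heme-Hpx. The groups overlapped in each case. With Sall1 the medians were -2.99 in controls, -2.86 and -2.95 with heme-albumin at 200 and 400 µM, and -3.45 with heme-Hpx.

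Of 14 further genes of homeostatic microglia, 13 passed the filter, and 8 of them fell at 200 µM and 8 at 400 µM heme-albumin. The largest falls at 200 µM included those of Crybb1 (-1.52) and the transporter gene Slco2b1 (-0.90). With heme-Hpx, 9 of the 13 were higher than with heme-albumin, led by Crybb1 (1.47), Slco2b1 (0.98) and Selplg (0.96). None of the 13 passed the test for heme-Hpx against control. Of 10 genes of border macrophages, the macrophages of meninges and vessels, 5 fell at 200 µM heme-albumin, led by the hemoglobin-haptoglobin receptor Cd163 (-0.91), Stab1 (-0.90) and the mannose receptor Mrc1 (-0.83), and 4 fell at 400 µM. Their summed CPM ran from 373 to 952 in controls and from 259 to 528 at 200 µM. Of 6 blood leukocyte genes, only 1 passed the filter in batch 1, with group medians of 1.37 to 1.91 CPM. That gene, S100a8, rose at 400 µM heme-albumin (log2 fold change 0.72). The part of these cell types in the members' values was not tested.

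Ligands and partners of the members moved in both directions. Of 12 such genes, 2 rose and 2 fell at 200 µM heme-albumin. Csf1, which encodes a ligand of CSF1R, rose by a log2 fold change of 0.22 (adjusted p = 0.00465, edgeR), and Smad3, a mediator of transforming growth factor beta signals, by 0.27, while the transcription factor gene Mef2c (-0.50) was among those that fell. At 400 µM, 3 rose and 4 fell, with Smad3 at 0.45 and Mef2c at -0.51. With heme-Hpx, Cx3cl1, the fractalkine gene, was 0.27 above control (adjusted p = 0.0208) and the integrin gene Itgb8 0.45 below it (log2 fold change -0.45). Among 14 genes of disease-associated microglia, 2 fell (Cst7 at -1.34, Clec7a at -0.89) and none rose at 200 µM heme-albumin, and 10 were higher with heme-Hpx than with heme-albumin. Of 9 tested inflammatory genes, 2 rose (Ccl2 at 0.63, Tnfrsf1a at 0.18) and 2 fell (Ccl4 at -1.45, Ccl3 at -0.75) at 200 µM. The share of all genes that rose with heme-albumin is not given here, so these counts of rising genes have no background beside them.

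Among markers of the other brain cells at 200 µM heme-albumin, with 6 genes in each list, 3 astrocyte markers fell (Aqp4 at -0.53, Aldoc at -0.44, Gfap at -0.34, median of the list -0.30). The endothelial marker list had 1 gene that fell (Ly6c1 at -1.05, median of the list -0.18), and no neuron (median -0.16) or oligodendrocyte marker (median -0.17) passed the test. At the same dose Cask was at -0.041 and Med12l at -0.091 (log2 fold change, neither called), and Hmgxb3 rose by 0.16, opposite to Csf1r. At 400 µM Med12l, which holds P2ry12 and P2ry13 on its other strand, fell by 0.21 on the log2 scale (adjusted p = 0.00973, edgeR).

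No member passed the test for Hb at 200 or 400 µM at either time. Of all genes, 0.0971% and 0.522% were called in either direction at 24 h with 200 and 400 µM, and 0.310% and 0.601% at 48 h. No member had an unadjusted p below 0.05 by edgeR in these 4 comparisons, and DESeq2 called none. The medians of the members' log2 fold changes were 0.089 and 0.039 at 24 h and 0.018 and 0.19 at 48 h. Without library 8 of Hb 400 µM at 24 h, which stood far above its group, the median there was -0.12, with 6 of 8 members below 0. The widest intervals were those of Cx3cr1, which at 48 h and 400 µM was at 0.68 (95% interval -0.12 to 1.49), and the narrowest those of Sall1 (-0.22 to 0.16) and P2ry12 (-0.13 to 0.46). For Gpr34 at 48 h and 400 µM the interval was -0.32 to 1.14.

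At 24 h no member passed the test for HbHp or Hp either. Of all genes, 1.93% were called for HbHp 200 µM, 5.15% for HbHp 400 µM and 0.704% for Hp 400 µM against control, 0.607% and 2.21% for HbHp against Hb at 200 and 400 µM, and 0.619% for HbHp against Hp. Over these 6 comparisons edgeR gave 1 unadjusted p below 0.05 (P2ry12 for HbHp against Hp, log2 difference -0.41), and DESeq2 called none. The members' medians were -0.34 for HbHp 200 µM, -0.27 for HbHp 400 µM and -0.20 for Hp against control. Their sign rests on the round term: with the batch term alone they were 0.12, 0.27 and 0.021, in round E2 alone 0.037, 0.13 and 0.45, and in batch 3 alone -1.0, -0.86 and -0.82.

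At 48 h P2ry12 was lower with HbHp at 400 µM. It had 4.89, 4.96, 5.65, 8.33 and 7.21 CPM in the 5 libraries, against 7.50 to 17.6 CPM (median 10.0) in 9 controls, 7.46 to 20.2 CPM (median 13) with Hb at 400 µM and 6.13 to 14.9 CPM (median 11) with Hp at 400 µM. The log2 fold change was -0.93 ± 0.21 against control (SE, adjusted p = 0.000966 by edgeR), -1.09 ± 0.21 against Hb (adjusted p = 0.000521) and -0.86 ± 0.19 against Hp (adjusted p = 0.0044). It was the only member of 8 that passed against control, where 4.56% of all genes were lower, and the only member that passed against Hp, where 0.413% were lower.

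The Hp libraries allow this comparison within batch 3 and round E2. The 6 such libraries at 48 h had 11 to 14.9 CPM of P2ry12, all above the 5 HbHp libraries. P2ry13, the neighbouring ADP receptor gene, had 7.60, 5.03, 9.50, 11.4 and 6.08 CPM with HbHp. It had 11.5 to 18.1 CPM in the same 6 Hp libraries, so the ranges parted only between 11.4 and 11.5 CPM. The share of all genes whose ranges did not overlap is not given here, for these or for the other comparisons of ranges. In the fit over both batches P2ry13 was at -0.65 ± 0.28 against Hp (adjusted p = 0.232, edgeR), and with round E2 alone it passed at -0.84 (adjusted p = 0.0305). Only 2 controls at 48 h were of round E2, with 13.5 and 17.6 CPM of P2ry12. The 3 Hb libraries of that dose, time and round had 8.64, 16.4 and 8.05 CPM, which overlapped the HbHp libraries, and in round E2 alone P2ry12 did not pass against Hb (log2 difference -0.64, adjusted p = 0.149 by edgeR).

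Gpr34 was the other member that passed a test at 48 h. It had 2.33, 0.803, 4.75, 6.16 and 4.09 CPM with HbHp at 400 µM and 1.93 to 21.4 CPM (median 7.90) with Hb at the same dose, and the groups overlapped. The log2 difference was -1.82 ± 0.55 (adjusted p = 0.0373, edgeR), and 2 of 8 members were thus lower than with Hb, where 1.44% of all genes were lower. The Gpr34 call was lost when any of HbHp libraries 1, 2, 3 or 5 was left out (adjusted p = 0.0568 to 0.0983 by edgeR). It was also lost in round E2 alone (-0.66, adjusted p = 0.647) and in batch 3 alone (-1.46, adjusted p = 0.301). The same held with the batch term alone, with neither term, and with the library-name code as a block (-1.49, adjusted p = 0.0528). The call thus held in 5 of 14 alternatives. Against control Gpr34 was at -1.41 ± 0.54 (adjusted p = 0.0715, edgeR), and DESeq2 called it (adjusted p = 0.0487).

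The remaining members were below 0 in the fit without a call. With HbHp 400 µM against control at 48 h, the 8 members ran from -1.41 to -0.091 (median -0.73), and with HbHp 200 µM, where 11.9% of all genes were called in either direction, from -1.14 to -0.21 (median -0.61) with 0 called (2 unadjusted p below 0.05 by edgeR, 0 calls by DESeq2). HbHp against Hb at 200 µM also gave 0 calls with a median of -0.63 (4.98% of all genes called, 3 unadjusted p below 0.05 by edgeR, 0 calls by DESeq2). The size of these values rests on how round was handled, since all HbHp libraries are of round E2. With the batch term alone the median against control was -0.16 at 200 µM and -0.22 at 400 µM. In round E2 alone, with 2 controls, it was -1.06 and -1.10, and in batch 3 alone -0.88 and -1.03. Against Hb at 200 µM these settings gave, in the same order, -0.20, -0.69 and -0.93. Hp alone had 0 calls against control at 48 h, where 10.8% of all genes were called, with members from -0.39 to 0.046 (median -0.049), no unadjusted p below 0.05 by edgeR and 0 calls by DESeq2.

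**Figure D3:**
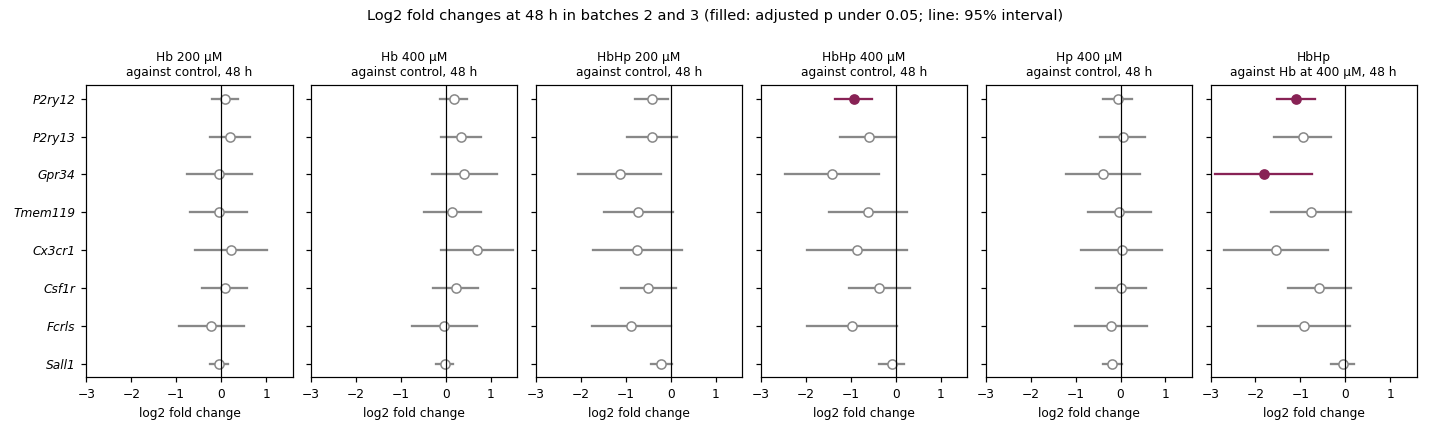
Log2 fold changes of the 8 tested members at 48 h with 95% intervals (lines), filled where the adjusted p was below 0.05. P2ry12 is filled for HbHp at 400 µM against control and against Hb, and Gpr34 against Hb, while both Hb doses and Hp show open points only.

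The pan-myeloid list had no call at 48 h in the comparisons where P2ry12 passed, nor for HbHp 200 µM against control, where P2ry12 did not pass. None of its 15 genes passed for HbHp 400 µM against control (median log2 fold change 0.18), for HbHp 200 µM (0.024), for HbHp against Hb at 400 µM (-0.05) or against Hp (-0.18). The values against control and Hb rest on how round was handled, as those of the members do. The summed CPM of the list, without batch or round correction, ran from 3293 to 6595 (median 4357) in the 5 HbHp 400 µM libraries. In controls it ran from 995 to 6529 (median 2608). Whether myeloid content differed was not tested. Of 14 further homeostatic genes, none passed for HbHp 400 µM (median -0.0058). In the same comparison 5 of 9 inflammatory genes rose, led by Il6 (1.49), the microglial receptor gene Gpr84 (1.26) and Tnf (1.17), 1 of 14 disease-associated genes rose (Itgax at 1.44), and 1 of 12 ligands and partners fell (Il34, the second ligand gene of CSF1R, at -0.37). The share of all genes that rose in this comparison is not given here, so the counts of rising genes have no background beside them. Among border macrophage genes Pf4 rose (0.84) and Cbr2 fell (-1.60), and 4 of 6 proliferation genes fell.

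Without Sall1, the log2 ratio of the members' summed CPM to that of the pan-myeloid list ran from -4.39 to -3.97 (median -4.21) in the 5 libraries with HbHp 400 µM at 48 h. In the 9 controls it ran from -3.83 to -3.27 (median -3.67), with no overlap. Only 2 of these controls are of round E2 (-3.68 and -3.27), and the ratio carries no batch or round correction. In the 6 Hp libraries of round E2 it ran from -4.02 to -3.48 (median -3.77), which overlapped the HbHp libraries. The 5 Hp libraries of round E1 ran from -4.48 to -4.01 (median -4.18) and also overlapped them. With Sall1 the HbHp libraries, from -4.0 to -3.80 (median -3.81), lay below the 6 Hp libraries of round E2, from -3.79 to -3.33 (median -3.58), and below the controls, from -3.54 to -2.58 (median -2.96). Among other cell types, 2 of 6 astrocyte markers fell for HbHp 400 µM against control (Aldoc at -0.71, Gfap at -0.69), as did the endothelial marker Ly6c1 (-1.22) and the oligodendrocyte marker Mobp (-0.45), and the leukocyte gene S100a8 rose (1.23). Their part in the members' values was not tested.

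**Figure D4:**
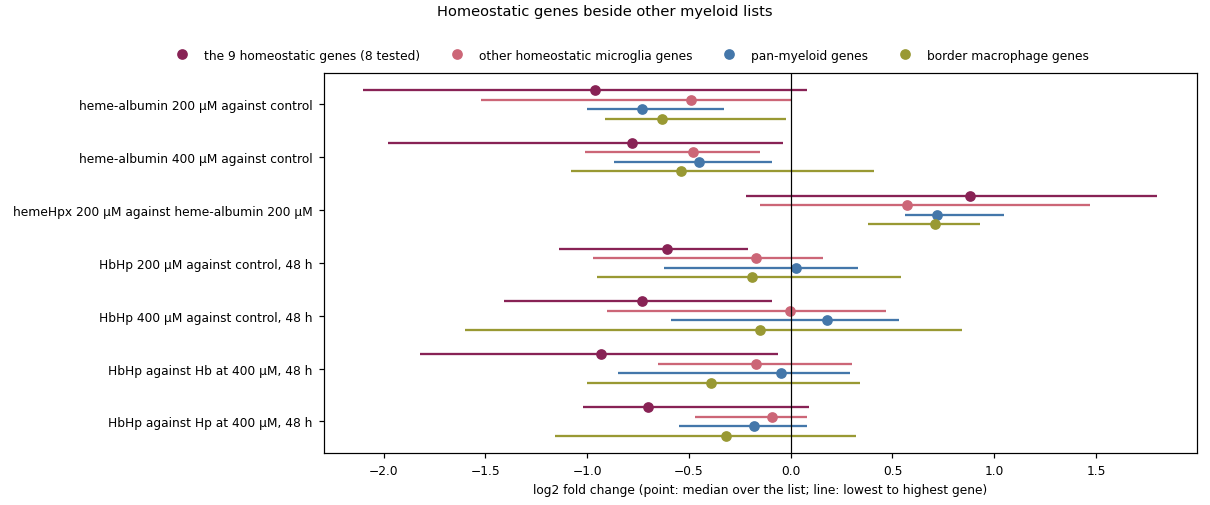
Median (point) and lowest to highest (line) log2 fold change of the 8 tested members and of 3 other myeloid lists in 7 comparisons. In batch 1 the 4 medians lie on the same side of 0, and at 48 h the members' median lies at -0.61 to -0.93 while that of the pan-myeloid list lies between -0.18 and 0.18.

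The members were also compared between times and between rounds. In untreated slices, 2 of 8 members were higher at 48 h than at 24 h, where 1.66% of all genes were higher. P2ry12 went from 5.63 to 9.27 CPM (median 7.89) at 24 h to 7.50 to 17.6 CPM (median 10.0) at 48 h (log2 fold change 0.56 ± 0.15, adjusted p = 0.016, edgeR), and Cx3cr1 from 3.46 to 39.5 CPM (median 12.3) to 8.25 to 148 CPM (median 33.6; 1.37 ± 0.41, adjusted p = 0.0375). Without control library 7 of 48 h, which held the 148 CPM, Cx3cr1 was at 1.27 with an adjusted p of 0.0714 by edgeR, and with the library-name code as a block it was at 1.15 (adjusted p = 0.211). The Cx3cr1 call held in 4 of 10 alternatives and was also lost with the batch term alone, with neither term, in round E2 alone and in batch 3 alone. For other lists in the same controls, the median summed CPM was 1974 at 24 h and 2608 at 48 h for the pan-myeloid list (0 of 15 genes called), 5199 and 7201 for astrocyte markers (0 of 6 called) and 29530 and 24985 for oligodendrocyte markers (4 of 6 lower). The share of all genes lower at 48 h is not given here. The part of these lists in the members' values was not tested. Sall1 was at -0.03 between the times. Whether the 48 h effect of a treatment differed from its 24 h effect was tested for Hb and HbHp at 200 µM, with 0 members called by edgeR or DESeq2, no unadjusted p below 0.05 among them, and 0% and 0.0121% of all genes called.

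Round E2 was above round E1 for 7 members and below it for Sall1, in a contrast that called 68.0% of all genes. Fcrls (log2 difference 1.59), Cx3cr1 (1.58) and Tmem119 (1.16) differed most, P2ry12 least (0.31), and Sall1 was at -0.29. With Hp at 400 µM and 24 h, where each round holds 6 libraries, Cx3cr1 ran from 2.74 to 15.8 CPM (median 3.95) in round E1 and from 17.2 to 53.9 CPM (median 32.7) in round E2, with no overlap. All 15 pan-myeloid genes were higher in round E2 (median 0.97) and all 6 proliferation genes lower (median -0.51). Between batch 3 and batch 2 no member passed the test (17.2% of all genes called), with P2ry12 at -0.24 (95% interval -0.46 to -0.033), the 1 member with an unadjusted p below 0.05 by edgeR.

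**Figure D5:**
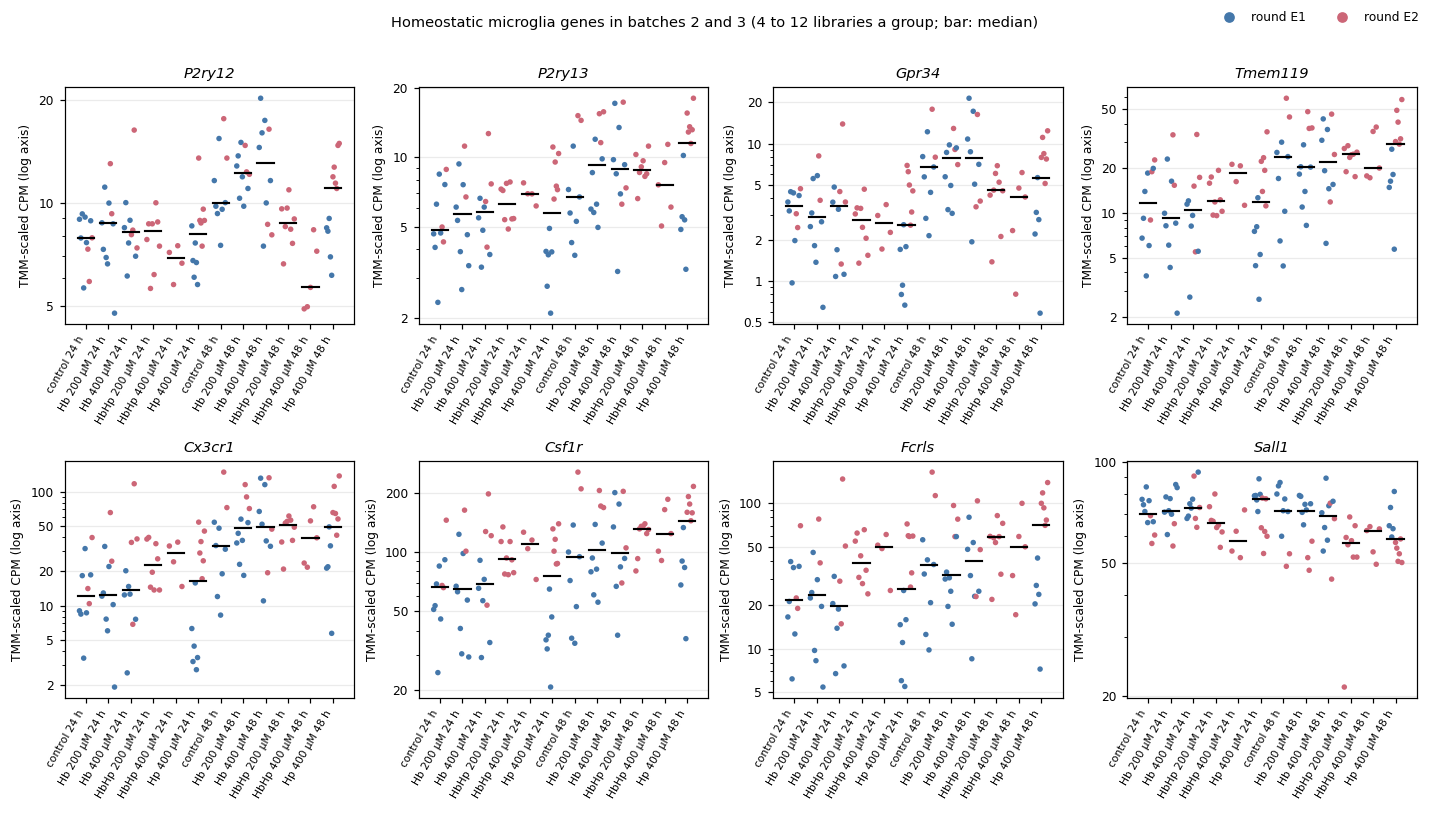
TMM-scaled CPM (log axis) of the 8 tested members in each library of batches 2 and 3, by group, with group medians (bars) and rounds in colour. Group medians of round E2 (red) lie above those of round E1 (blue) in at least 6 of 8 groups that hold both rounds for every member but Sall1, and the HbHp groups hold round E2 only.

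The library-name codes also carry a letter, M or W in batch 1 and M or F in batches 2 and 3, that no label explains. With the letter as a term, 7 of 8 members were lower in M than in F libraries of batches 2 and 3, where 8.14% of all genes were lower. Fcrls differed most (log2 difference -0.768 ± 0.139, adjusted p = 0.000138, edgeR), followed by Gpr34 (-0.692) and Cx3cr1 (-0.587), and Sall1 was at 0.0451. In batch 1 no member differed between the letters (2.71% of all genes called), with values from -0.314 for Fcrls to 0.216 for Cx3cr1. Libraries of 1 code may share an animal, so these p-values may be too small, and the letter was taken up only once the values were known.

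The genes whose levels followed the members most closely across libraries were looked up among 13886 genes. Likeness was the lower of 2 correlations of log2 CPM with the members' mean, over 60 libraries of batch 1 and, after a fit of batch and round, over the libraries of batches 2 and 3. Among those at the top were Sla and Cd180 (0.95 each), Ly86 (0.94), and Tent5c, Dock2, Cd72 and Hpgds (0.93 each). The points share libraries, rounds and treatments, and the values are descriptions.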

How the data were processed

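Bulk mRNA of brain slice cultures was sequenced by the authors, and per the labels the deposited values are raw counts per gene from featureCounts on GRCm39, with the aligner and annotation not given in the sources used here. Symbols were matched through Ensembl IDs. Counts were scaled by TMM (trimmed mean of M values), filtered with filterByExpr (minimum count 10) and tested with the quasi-likelihood test of edgeR 4.0.16 in R 4.3.3, at a Benjamini-Hochberg adjusted p of 0.05. Batch 1 was fitted by group (15554 genes) and batches 2 and 3 by group, batch and round (16473 genes), each over all of its groups. CPM values were TMM-scaled with no batch or round correction. The study's methods used DESeq2, run here as an alternative (version 1.42.0). Fits were tested on simulated data. Promoters came from RefSeq (GRCm38.p6), with 5 members and Siglech matched. Named were all members, at most 3 called genes per list and comparison by size of change, and 8 genes by likeness. Csf1 and Tnfrsf1a at 200 µM heme-albumin were named after their values were seen. A few genes that this rule names are not reported here. Members and lists were chosen with earlier results of these data known.

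Of 188 libraries, 21 were left out of every comparison because their labels disagree or give no treatment. No label says that libraries of a group came from separate animals, so p-values measure the spread between libraries, which may be technical. In each of 630 replicate pairs the counts differed by more than sampling noise (chi-square over degrees of freedom at least 3.48). Limits set by counts cover counting error only.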

Additional observations from a re-analysis of the deposited data

Results flagged for a closer look

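Library 8 of Hb 400 µM at 24 h (batch 2, round E2) lay far above the rest of its group in 6 members. It had 117 CPM of Cx3cr1 (the next library had 38.4), 147 CPM of Fcrls (50.8), 13.9 CPM of Gpr34 (4.83), 16.3 CPM of P2ry12 (10), 12.7 CPM of P2ry13 (7.67) and 33.8 CPM of Tmem119 (17.4). Without it, 0 members passed in both comparisons that use the group, as with it.

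Library 5 of heme-albumin 50 µM had 20.2 CPM of Cx3cr1 (next 7.8), 5.19 CPM of Gpr34 (2.22) and 11 CPM of P2ry13 (6.97). Control library 7 of 48 h had 148 CPM of Cx3cr1 (72.3), and library 7 of Hb 200 µM at 24 h had 65.4 CPM (33). Control library 10 of 24 h had 70.1 CPM of Fcrls (39.7), and control library 2 of batch 1 had 31.8 CPM of Tmem119 (18). Library 1 of HbHp 200 µM at 48 h had the lowest Sall1 of its group, 21.3 CPM against 52 in the next. Each of these 14 values stood apart from its group by Dixon's 95% limit, out of 128 combinations of member and group tested, and chance alone puts about 1 in 20 past that limit.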

How the results depend on the processing

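The number of members called stayed within 1.5 times its main value in 220 recomputed comparisons and moved further in 26, and no called value changed sign. In most comparisons the main value was 0, and a 0 that stays 0 says little about how stable a call is. For heme-Hpx against control, where 0 members passed, DESeq2, the library-name code as a block and the fit without control library 2 each called 1 (P2ry12). For HbHp 400 µM against control at 48 h, DESeq2 and the code letter as a term called 2 (Gpr34 added to P2ry12), and P2ry12 passed in 15 of 15 alternatives (-1.18 to -0.74). For HbHp 200 µM against control, the batch term alone and neither term called 1 (Sall1) in place of 0, and against Hb at 200 µM neither term called 2 and the code letter 1. Against Hb at 400 µM, the main 2 became 1 with the batch term alone, with neither term, with batch 3 alone and with the block, and 0 in round E2 alone, and 1 to 2 when an HbHp library was left out. Against Hp, the main 1 became 0 with neither term and 2 in round E2 alone and in batch 3 alone. For control at 48 h against 24 h, the main 2 became 1 with the batch term alone, with neither term, with the block and without control library 7, and 0 in batch 3 alone. The causes were not tested.

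The log2 ratio of members to the pan-myeloid list, as a difference from control, moved to -0.37 and -0.48 for heme-albumin 200 and 400 µM with a geometric mean. Without Sall1 it moved to 0.094 for Hb 400 µM and -0.29 for HbHp 200 µM at 48 h. As summed CPM with Sall1, the heme-albumin medians (-2.86 and -2.95) lay above control (-2.99), so their sign turned. The sign of Hb 400 µM at 48 h (-3.20, control -2.96) turned as well. Without Sall1 the heme-albumin medians (-4.30 and -4.33) also lay below control (-4.04). Libraries that share a name code were not paired: of 175 such pairs in batch 1, 101 had correlated deviations above 0.1, and 135 of 300 in batches 2 and 3, while 23 and 17 libraries, respectively, correlated best with their own code. The code letter, the Sall1 setting and the fits without single control or Hb libraries were chosen after seeing the data. Gpr34 and Siglech are limited by depth, and HbHp by 4 or 5 libraries at 400 µM in 1 batch and 1 round.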

Other observations

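The 21 libraries left out of the comparisons held the members at the following levels. The 20 that carry the tag for hemoglobin with hemopexin at 400 µM, but titles that name haptoglobin, are given by round. Their library names read Hpx400 in round E1 and HbHpx400 in round E2, so whether both rounds hold the same treatment is not known, and their values are not compared. At 24 h, P2ry12 ran from 5.05 to 8.67 CPM (median 6.88) in 7 libraries of round E1 and from 10.3 to 14 CPM (median 12) in 3 of round E2. Gpr34 ran from 0.773 to 5.66 CPM (median 1.49) and from 4.07 to 9.82 CPM (median 8.74) in the same libraries. At 48 h, P2ry12 ran from 7.32 to 14.2 CPM (median 10.1) in 7 libraries of round E1 and from 11.5 to 12.9 CPM (median 12.3) in 3 of round E2, and Gpr34 from 2.12 to 17.2 CPM (median 6.71) and from 7.86 to 16.2 CPM (median 10.9). The remaining library, with no treatment tag, had 11.7 CPM of P2ry12 and 6.84 CPM of Gpr34.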
